A study of Mus musculus with 72 samples.

Results

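The late course of X inactivation was followed in clone A3, a SmcHD1 knockout (KO) clone of the mouse line iXist-ChrX_Dom. Its libraries of the labels' NPC stage were compared with those of the days before: days 15, 21, 35 and 52 of NPC differentiation (1 library each) against days 5 and 7 (2 replicates each), 8 of the 72 libraries of the series. Members were taken by clone and day as the labels give them. The measured quantity was chromatin-associated RNA (ChrRNA-seq), which is mostly newly made RNA still bound to chromatin, so that the output of each X chromosome can be read from fragments that carry a SNP.

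The cells are F1 hybrid female XX mouse embryonic stem cells (mESCs) with a Mus musculus domesticus (129) X and a Mus musculus castaneus (Cast) X. A doxycycline-inducible promoter replaces that of Xist on the Dom X, so the Dom X becomes the inactive X (Xi) and the Cast X stays active (Xa). All 8 libraries, and the 8 wild-type (WT) libraries of the same line and days, carried this allele and were grown with doxycycline while they differentiated. A3 is a single clone, edited with guides against a pair of Smchd1 exons, so an effect of the deletion and a property of the clone cannot be told apart. The labels call days 5 and 7 a stage between mESC and NPC. Feeder fibroblasts were removed before differentiation by repeated pre-plating. From day 7 on, the cells were grown in suspension with growth factors, then replated and passaged. The replicate number in the labels is 2 at day 15 and 1 at days 21, 35 and 52, so the late days need not be samples of the same culture. The late days have 1 library each. Where they are pooled as a period, the spread includes the spread between days.

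X inactivation silences 1 of the X chromosomes of a female cell. Xist RNA coats the chromosome in cis, Polycomb complexes mark it, and DNA methylation of CpG-rich promoters follows late. SmcHD1, a non-canonical protein of the SMC family, is recruited to Xi after silencing has begun and is known for keeping a subset of genes silent in differentiated cells. The silencing of each gene was read as the allelic ratio Xi/(Xi + Xa), the share of SNP-assigned fragments that come from Xi. It is 0.5 when both alleles are equally active and 0 when Xi is silent. The SNPs of this line are informative only from the start of X up to Xist. Of 246 listed X-linked genes, 212 had at least 10 allelic fragments in all 8 libraries and were tested. They start between 6.4 and 103.356 Mb of X, with Xist at 103.46 Mb.

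Depth ranged from 26559430 to 31152645 fragments per A3 library. Smchd1 RNA, which the edit need not remove, was 524 to 594 RPM (a gene's fragments scaled to the total of its library) at days 5 and 7. It was 378, 411, 391 and 217 RPM at days 15, 21, 35 and 52 (log2 fold change -0.40, SE 0.16, edgeR adjusted p = 0.132). A pair of late libraries stood apart from the others and is named before the results. At day 35 the first 18 Mb of X carried raised Xi ratios, described below. At day 52 the allele shares of the autosomes had moved. In windows of 10 Mb, 48 of 253 differed by over 0.05 from the mean of days 5 and 7, against 13 at day 15, 5 at day 21, 2 at day 35 and 0 at days 5 and 7. The Cast share of chromosome 8, for example, was 0.695 at day 52 and 0.642 to 0.646 at days 5 and 7. In all A3 libraries the Cast share of chromosome 12 was above 0.64. The part of these shifts in the results below was not tested beyond the values given with and without these libraries.

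The median X-linked ratio was lower in the late libraries than at days 5 and 7, whereas the share of genes with clear Xi output was not lower throughout. The median ratio over the 212 genes was 0.0591 and 0.0409 in the day 5 replicates and 0.0344 and 0.0321 in the day 7 replicates. It was 0.0153 at day 15, 0.0176 at day 21, 0.0291 at day 35 and 0.0286 at day 52. All 4 late medians lay below all 4 early medians, with the lowest values at days 15 and 21 and higher ones at days 35 and 52. The difference of the group means was -0.0190 (exact permutation test, two-sided, p = 0.0286, which is as low as 70 arrangements allow). Leaving out single libraries gave differences of -0.0222 to -0.0132 with exact permutation p = 0.0286 to 0.0857, and p was above 0.05 after leaving out day 5 replicate 1 or any 1 late library. Gene by gene, and against day 7 alone, the median difference was 0.000527. It was -0.00364 without day 35 and -0.00182 without genes below 18 Mb. On the log2 scale of Xi over Xa it was -0.246. Whether the typical gene fell further after day 7 thus depended on the day 35 library, the first 18 Mb and the scale.

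The mean over the same genes did not follow the median. It was 0.0791, 0.0727, 0.0628 and 0.0615 in the early libraries and 0.0620, 0.0474, 0.0979 and 0.0805 at days 15, 21, 35 and 52. The late minus early difference of these means was 0.00291 (two-sided exact permutation p = 0.771), opposite in sign to that of the median. Genes above a ratio of 0.1 made up 18.4% to 25.9% of the 212 at days 5 and 7, against 21.7% at day 15, 13.2% at day 21, 31.1% at day 35 and 30.7% at day 52. The lower part of the distribution thus moved towards 0 while the upper part over all 212 genes was as wide or wider at days 35 and 52. At day 35 this rested on the first 18 Mb, where 41 of 42 genes were above 0.1. Of the 170 genes from 18 Mb on, 36, 36, 27 and 28 were above 0.1 in the early libraries. At days 15, 21, 35 and 52 there were 37, 20, 25 and 55, so outside the first 18 Mb the upper part was wider at day 52 but not at day 35.

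**Figure D1:**
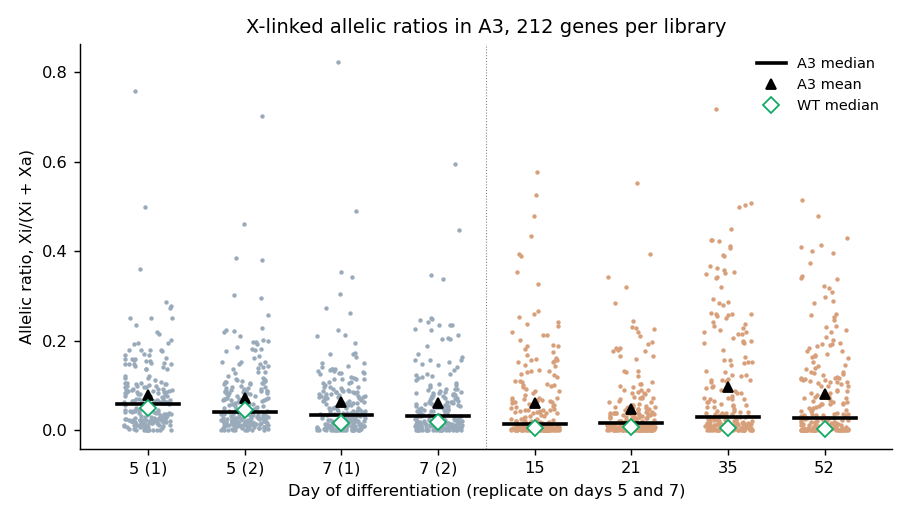
Allelic ratio of the 212 tested genes in each A3 library (points), with the A3 median (bar), the A3 mean (triangle) and the WT median of the same genes (diamond); the y axis is Xi/(Xi + Xa) and the x axis the day, with the replicate in brackets. The 4 late A3 medians (0.0153 to 0.0291) sit below the 4 early ones (0.0321 to 0.0591), while the means of days 35 and 52 (0.0979 and 0.0805) sit above them.

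A total of 23 genes exceeded 0.1 in all 8 libraries, among them Kdm6a, Ddx3x, Eif2s3x, Ogt, Igbp1, Nkap, Taf1, Yipf6 and Zfx. In the late libraries 25 genes did so in all 4, the other two being Firre and Mbnl3. No gene that was above 0.1 in all 4 early libraries was below it in all 4 late ones, and none went the other way. At the silent end, 105 genes were at or below 0.1 in every library.

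The ratio genes that passed the test against days 5 and 7 were lower late. With limma, 2 of 212 genes had a lower late ratio (adjusted p below 0.05, 0.943% of the genes tested), Renbp and Mtm1, and none a higher one. At an unadjusted p below 0.05, 33 genes were lower (15.6%) and 3 were higher (1.42%). In 30 genes all 4 late ratios lay below all 4 early ones (14.2%), and in 2 they lay above (0.943%). The edgeR test of the allelic counts called 11 genes, all lower. Both calls were lost when any library other than day 7 replicate 2 was left out (0 genes passed in each of these fits, with 27 to 49 at an unadjusted p below 0.05, whereas 11 passed without day 7 replicate 2). With the replicate number as a block, 0 passed. In a fit with day 7 alone as the early group 3 genes passed, which share 1 gene with these calls.

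Renbp (chrX:73922120-73930850, mm10), the renin-binding protein, had ratios of 0.159 and 0.130 at day 5 and 0.118 and 0.0813 at day 7. It had 0.00581 at day 15, 0.00667 at day 21, 0 at day 35 and 0.00556 at day 52, on 123 to 186 allelic fragments. The groups did not overlap, and the gene fell by 0.118 (SE 0.0205, limma adjusted p = 0.0422). Its Xa output was 4.82 RPM early and 5.44 RPM late, so the ratio moved with the Xi output (0.689 and 0.0256 RPM). Renbp is listed as SmcHD1-dependent in Smchd1-null mouse embryonic fibroblasts (MEFs), yet in late A3 its ratio was close to that of WT, where it was 0 to 0.00633.

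Mtm1 (chrX:71210766-71315295), which encodes the phosphatase myotubularin, was nearly silent at day 7 already. Its ratios were 0.0186, 0.0273, 0.0175 and 0.0147 at days 5 and 7 and 0, 0.00244, 0 and 0.00427 at the late days. It fell by 0.0179 (SE 0.00309, limma adjusted p = 0.0422). WT had 0 to 0.00974 at the same late days.

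Another 6 genes named by the size of their difference did not overlap between the groups but did not pass. The escape gene Kdm6a (chrX:18162666-18279358), an H3K27 demethylase, had 0.252, 0.302, 0.225 and 0.247 early and 0.152, 0.184, 0.179 and 0.153 late on at least 3656 fragments (difference -0.0893, SE 0.0245, limma adjusted p = 0.114). Brcc3, a deubiquitinase of the BRCA1-A complex, had 0.0324 to 0.0662 early and 0.00218 to 0.00891 late (difference -0.0436, adjusted p = 0.0941 with limma). Zfp182, a zinc finger gene, had 0.0914 to 0.142 early and 0.0243 to 0.0587 late. The creatine transporter Slc6a8 had 0.0698 to 0.0769 early and 0 to 0.04 late. Timp1, a metalloproteinase inhibitor, was at 0 in all 4 late libraries, but it rested on only 13 to 39 fragments per library and a count of 0 allows a ratio of up to 3 fragments of that total. The row of Mir669m-2 spans 77164402 to 77475936 and can hold fragments of other transcripts, so its ratios (0.0513 to 0.185 early, 0.02 to 0.045 late) are uncertain.

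Kdm6a differed from the silenced genes in where it ended. Renbp, Mtm1 and Brcc3 reached late ratios below 0.01 in each of the 4 libraries, near those of late WT. Kdm6a stayed at 0.152 to 0.184 in late A3, whereas late WT went from 0.0620 and 0.102 at days 15 and 21 to 0.0284 and 0.00659 at days 35 and 52.

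Genes whose ratio rose again after day 7 were few and none passed the test. Of the 212 genes, 5 had all 4 late ratios above both day 7 ratios (2.36%), and 32 had all 4 below (15.1%). In the fit of the late days against day 7 alone, 0 genes passed with limma (20 at an unadjusted p below 0.05) and 0 with edgeR on the allelic counts. Yipf6, Zfx, Apoo and Firre were among these 5.

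Yipf6 (chrX:98937780-98949020), which encodes a Golgi membrane protein, had 0.168 and 0.153 at day 5 and 0.129 and 0.189 at day 7. It had 0.267, 0.198, 0.237 and 0.338 at days 15, 21, 35 and 52, on 447 to 869 fragments. All late values lay above all early ones (late minus early 0.100, SE 0.0332, limma adjusted p = 0.150). Its Xi output was 7.67, 4.10, 3.99 and 7.71 RPM at days 15, 21, 35 and 52 and 2.43 to 4.30 RPM early. At days 21 and 35 it thus lay within its early range when scaled to library totals. The total RNA fit scales libraries by TMM factors instead, which were 0.971 and 0.958 at these days and 1.04 to 1.18 early. On that scale the late outputs stand higher beside the early ones, so lying within the early range depends on the scaling. The Xa output was 16.4 to 22.5 RPM early and 21.1, 16.6, 12.8 and 15.1 RPM late. In WT the gene had 0.03 and 0.0322 at day 7 and 0 to 0.00411 at the late days, so the genotypes moved apart. The change in A3 minus the change in WT was 0.144 (limma unadjusted p = 0.00109, adjusted p = 0.185).

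Zfx (chrX:94074630-94123407), a zinc finger transcription factor, had 0.277, 0.296, 0.272 and 0.236 at days 5 and 7 and 0.394, 0.284, 0.343 and 0.396 late. Late minus day 7 was 0.100 (SE 0.0415, limma adjusted p = 0.501), and day 21 lay within the range of day 5. Apoo, a mitochondrial protein of the inner membrane, had 0.0456 and 0.0503 at day 7 and 0.0645, 0.0729, 0.0830 and 0.170 late. Its mean Xi output was 0.593 RPM early and 0.649 RPM late, and its mean Xa output 8.63 and 6.32 RPM. For Zfx these means were 14.9 and 18.5 RPM (Xi) and 40.3 and 34.1 RPM (Xa). In both genes the Xa mean was lower late in RPM, which is scaled to library totals. The TMM factors were 0.755 to 0.971 late and 1.04 to 1.18 early. On the TMM scale the late means stand higher beside the early ones, so a lower Xa output of Zfx cannot be read from these values.

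Firre, a long noncoding RNA with its own locus on X, had the smallest step of the 5. Its ratio was 0.0829 to 0.107 early and 0.107 to 0.117 late, and that of WT was 0.0878 to 0.0974 late. The output of both Firre alleles was lower late, with early and late means of 13.2 and 5.99 RPM for Xi and of 125 and 47.7 RPM for Xa. Its total RNA did not pass the test (log2 fold change -1.09, SE 0.34, edgeR adjusted p = 0.0812).

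**Figure D2:**
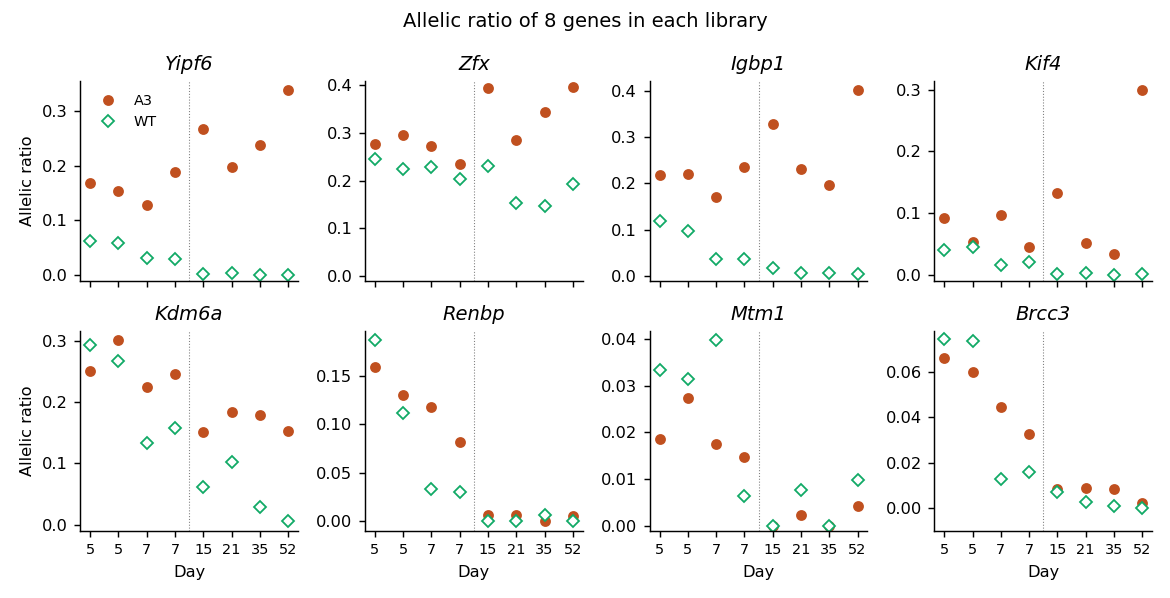
Allelic ratio (y axis, Xi/(Xi + Xa), own scale for each gene) of 8 genes in each library of A3 (filled) and WT (open) by day (x axis). Yipf6 is higher in all 4 late A3 libraries (0.198 to 0.338) than at days 5 and 7 (0.129 to 0.189), Kif4 stands out at day 52 (0.299), and Renbp, Mtm1 and Brcc3 lie below 0.01 in all late A3 libraries.

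The promoters of Renbp and Mtm1, which passed the test, and of Yipf6 and Zfx, which had the highest late minus day 7 ratios among the genes above day 7 in all late libraries, are shown, since CpG-rich promoters are the sites where DNA methylation is laid down on Xi and where SmcHD1 is known to matter. The sequences are RefSeq's (GRCm38.p6), 250 bases before to 50 after the start site that matches the gene's row, written 5′ to 3′ on the gene's strand with every CG in capitals.
Yipf6: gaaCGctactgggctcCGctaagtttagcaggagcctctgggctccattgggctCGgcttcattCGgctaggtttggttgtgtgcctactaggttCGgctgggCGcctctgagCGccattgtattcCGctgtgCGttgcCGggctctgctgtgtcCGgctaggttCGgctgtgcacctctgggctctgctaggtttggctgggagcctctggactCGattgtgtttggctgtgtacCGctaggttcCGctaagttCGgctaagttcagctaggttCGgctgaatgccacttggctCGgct
Zfx: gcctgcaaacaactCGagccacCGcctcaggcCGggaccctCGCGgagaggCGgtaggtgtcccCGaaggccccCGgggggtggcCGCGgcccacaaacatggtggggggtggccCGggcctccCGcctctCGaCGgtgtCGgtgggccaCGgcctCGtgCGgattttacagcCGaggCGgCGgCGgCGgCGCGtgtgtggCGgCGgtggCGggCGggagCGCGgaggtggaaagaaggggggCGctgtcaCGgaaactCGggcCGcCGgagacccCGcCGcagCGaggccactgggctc
Renbp: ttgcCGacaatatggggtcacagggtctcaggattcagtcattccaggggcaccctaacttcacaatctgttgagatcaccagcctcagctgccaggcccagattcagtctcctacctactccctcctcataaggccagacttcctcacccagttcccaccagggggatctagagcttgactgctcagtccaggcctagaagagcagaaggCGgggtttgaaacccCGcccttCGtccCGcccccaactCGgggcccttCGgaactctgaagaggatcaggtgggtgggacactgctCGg
Mtm1: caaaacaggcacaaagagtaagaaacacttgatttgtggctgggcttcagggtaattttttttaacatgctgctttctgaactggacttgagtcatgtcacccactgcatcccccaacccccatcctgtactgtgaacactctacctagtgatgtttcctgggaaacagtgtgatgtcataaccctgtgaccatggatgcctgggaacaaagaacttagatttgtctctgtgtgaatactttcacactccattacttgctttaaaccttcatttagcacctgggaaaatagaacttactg
The windows are chrX:98937531-98937830 on the plus strand for Yipf6, chrX:94123358-94123657 on the minus strand for Zfx, chrX:73930801-73931100 on the minus strand for Renbp and chrX:71210517-71210816 on the plus strand for Mtm1. They hold 18, 39, 8 and 0 CG, in this order. The window of Mtm1 belongs to its most upstream start, and RefSeq lists further starts downstream that were not used.

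Promoters were found for 171 of the 212 tested genes, with a median of 18 CG (range 0 to 43). The 23 matched genes of the 30 whose late ratios all lay below days 5 and 7 had a median of 17, the 42 matched genes of the 47 that were highest at day 52 had a median of 19.5, the 37 matched genes below 18 Mb had 18, and all 32841 promoters of the table had a median of 7. The YY1 motif AANATGGCG, searched on both strands, was in 2 of these 23 (8.7%), in 12 of the 171 (7.02%) and in 2.38% of all promoters. It was in 5 of the 42 genes highest at day 52 (11.9%) and in 1 of the 37 below 18 Mb (2.7%). The palindromic NRF1 motif was in 3 of the 23, in 18 of the 171 (10.5%) and in 4.6% of all. Overlap between these motifs was not removed. The 4 promoters above hold neither motif.

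Day 35 differed from the other late days in a block at the start of X. Below 18 Mb, 40 of 42 tested genes had their highest ratio of all 8 libraries at day 35, against 6 of 170 from 18 Mb on (46 of 212 in all, 21.7%). The median ratio of the 42 genes was 0.0884, 0.0891, 0.0679 and 0.0521 at days 5 and 7 and 0.0232, 0.0297, 0.271 and 0.0403 at days 15, 21, 35 and 52. At day 35, 41 of the 42 were above 0.1, the exception being Sytl5 at 0.0593. Sytl5 and Dynlt3 were also the genes that were not highest at day 35. The position of the boundary was set after the values were seen and no test was made. From 18 Mb on, the median at day 35 was 0.0167, beside 0.0132 at day 21.

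The added fragments came from the Xi allele. Genes that start below 10 Mb gave 42.6, 35.1, 36.8 and 18.2 Xi RPM at days 5 and 7 and 15.2, 13.9, 156 and 16.9 Xi RPM late, while their Xa output was 341 to 369 RPM early and 388 RPM at day 35. Their pooled ratio at day 35 was 0.287 (95% Wilson interval 0.280 to 0.295, counting error only) against 0.0371 at day 21 (0.0337 to 0.0409). Genes from 10 to 18 Mb had 0.191 (0.186 to 0.195) at day 35 and 0.0356 (0.0333 to 0.0380) at day 21. Individual genes included Tspan7, a tetraspanin (0.251 at day 35, 0.00869 at day 21), and Cask, a neuronal scaffold kinase (0.130 and 0.00498 on at least 5283 fragments). The last raised gene was the mitophagy receptor Fundc1 (chrX:17556568-17572297), with 0.147 at day 35 and 0.0159 at day 21. The next gene, Kdm6a, was at 0.179 and 0.184.

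By day 52 most of these ratios were low again. Their median was 0.0403 and 10 of the 42 were above 0.1. Among those that stayed up were the kinase Pim2 (0.426 at day 35, 0.323 at day 52), the deubiquitinase Otud5 (0.358 and 0.284) and the UDP-galactose transporter Slc35a2 (0.391 and 0.259). Since the late days are separate libraries, with cells sampled and passaged between them, the mix of cells at day 35 and the state of each cell cannot be told apart.

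A raised start of X was also seen in WT, over a shorter stretch. WT genes below 10 Mb had a median of 0.00980 at day 15, 0.0472 at day 21, 0.174 at day 35 and 0.0968 at day 52, and 25 of 29 were above 0.1 at day 35. From 10 to 18 Mb the WT medians were 0.0185, 0.0315, 0.0239 and 0.00592, and none of the 13 genes was above 0.1 at day 35, where all 13 were in A3. Tspan7 at 10.5 Mb had 0.0347 in WT and 0.251 in A3 on that day. The difference between the genotypes on that day has no replicate and was not tested.

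**Figure D3:**
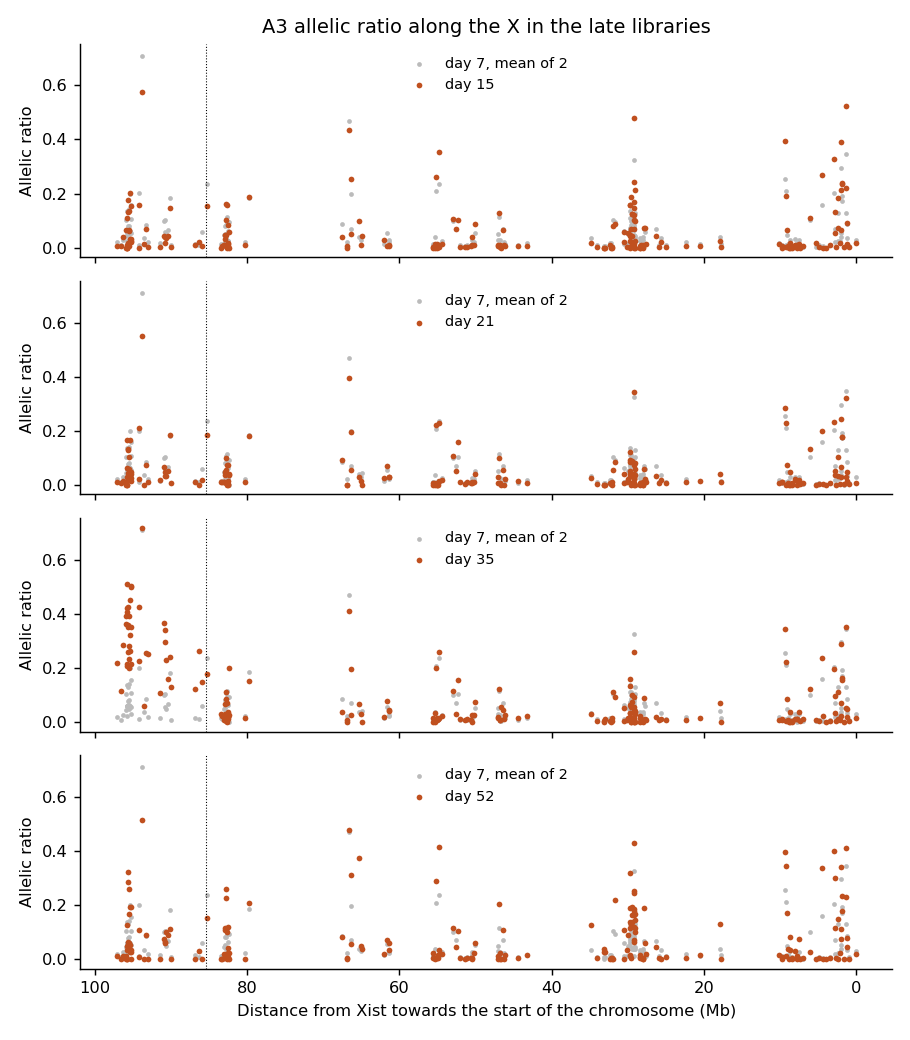
Allelic ratio (y axis) of the 212 genes against their distance from Xist (x axis, Mb) in each late A3 library (dark points), with the mean of the day 7 replicates (grey); the dotted line marks 18 Mb from the start of X. Beyond the line 41 of 42 genes exceed 0.1 at day 35, against 9 at day 15, 8 at day 21 and 10 at day 52. At day 52, genes on both sides of the line stand above their day 7 values, such as Pim2 (0.323) beyond it and Kif4 (0.299) nearer to Xist.

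Ratios at day 52 were raised in genes outside the first 18 Mb as well. In 47 of 212 genes (22.2%) the day 52 ratio was the highest of the 8, and all 47 start at 18 Mb or later. Since 40 of the 42 genes below 18 Mb were highest at day 35, they could not be among these 47, although 10 of them were above 0.1 at day 52. Their medians were 0.0705, 0.0795, 0.0625 and 0.0591 at days 5 and 7 and 0.0828, 0.0455, 0.0566 and 0.161 at days 15, 21, 35 and 52. In WT the same genes had medians of 0.0101, 0.00567, 0.00251 and 0.000332 at the 4 late days. They were chosen by their value at day 52, so that value is a description. All 61 tested genes from 65 to 94 Mb together gave 107 Xi RPM at day 52, within their early 73.4 to 127 RPM. Their Xa output was 1260 RPM, below the 1789 to 2024 RPM of days 5 and 7. These outputs are scaled to library totals. The TMM factor of the total RNA fit was 0.755 at day 52 and 1.04 to 1.18 at days 5 and 7. On that scale the day 52 outputs of both alleles stand higher beside the early ones, so where they lie against the early range depends on the scaling. Of the 47, Rbmx2 had 0.404 Xi RPM at day 52 and 0.674 to 0.861 Xi RPM early. Yipf6 went the other way, with 7.71 and 2.43 to 4.30 Xi RPM. The Xi and Xa outputs of the 47 as a set were not tested.

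Several of these genes moved far from their earlier range. Kif4, a chromosome-bound kinesin, had 0.0441 to 0.0960 at days 5 and 7, 0.133 at day 15, 0.0508 at day 21, 0.0335 at day 35 and 0.299 at day 52. Igbp1, a regulator of protein phosphatase 2A, had 0.170 to 0.236 early and 0.327, 0.232, 0.196 and 0.401 late. The translocon subunit Ssr4 had 0.0859 to 0.180 early and 0.157, 0.0833, 0.157 and 0.318 late. For these 3 genes day 15 and day 52 were the highest late days or tied with day 35, and day 21 lay within the early range or just below it. The E1 ubiquitin enzyme Uba1 had 0.258 at day 52 (196 of 760 fragments) against at most 0.162 before. Zbtb33 (Kaiso), at 0.375, rested on 9 of 24 fragments.

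The 5 highest ratios at day 52 included genes that do not read Xi silencing cleanly. Dynlt3, a dynein light chain, had 0.514 in A3 and 0.563 in WT on that day, and 0.552 to 0.822 in the other A3 libraries. Slc25a5, an ADP/ATP carrier, had 0.478 in A3 and 0.411 in WT. Rpl10, a ribosomal protein, had 0.430 and 0.232. Both Slc25a5 and Rpl10 have processed copies elsewhere in the genome that can share reads, so their ratios are uncertain. Rbmx2, an RNA-binding protein, had 0.414 in A3 and 0.117 in WT on 29 A3 fragments, and Pin4, a prolyl isomerase, 0.410 and 0.0208.

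The raised genes were read against the study's classes of SmcHD1 dependence, which come from MEFs and not from these libraries. Of genes from 18 Mb on, day 52 was the highest library for 10 of 24 SmcHD1-dependent genes (41.7%) and 29 of 65 partially dependent genes (44.6%). It was the highest for 4 of 6 escapees (66.7%), 2 of 55 genes that do not depend on SmcHD1 (3.64%) and 2 of 20 unclassed genes (10.0%), with 47 of 170 in all (27.6%). Conversely, over all 212 genes, all 4 late ratios lay below all early ones in 17 of 61 not dependent genes (27.9%). They did so in 8 of 83 partially dependent genes (9.64%) and 1 of 33 dependent genes (3.03%), with 30 of 212 in all (14.2%). None of the 42 genes below 18 Mb was among these 30, and without them the 3 classes hold 55, 65 and 24 genes.

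The class medians moved in the same way. Not dependent genes had 0.0222, 0.0175, 0.0115 and 0.0113 at days 5 and 7 and 0.00452, 0.00829, 0.0110 and 0.00281 late, all 4 late values below the early ones. Partially dependent genes had 0.0682, 0.0598, 0.0559 and 0.0441 early, then 0.0235, 0.0305, 0.0420 and 0.0549. Dependent genes had 0.0963, 0.104, 0.0745 and 0.0709 early, then 0.0887, 0.0377, 0.0962 and 0.144, so day 21 was the lowest and day 52 the highest of their 8 libraries. The median late minus early difference was 0.00685 in dependent genes, -0.00119 in partially dependent genes and -0.00721 in not dependent genes, beside -0.00343 over all 212. Without day 35 these were 0.00527, -0.00855, -0.00998 and -0.00966.

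**Figure D4:**
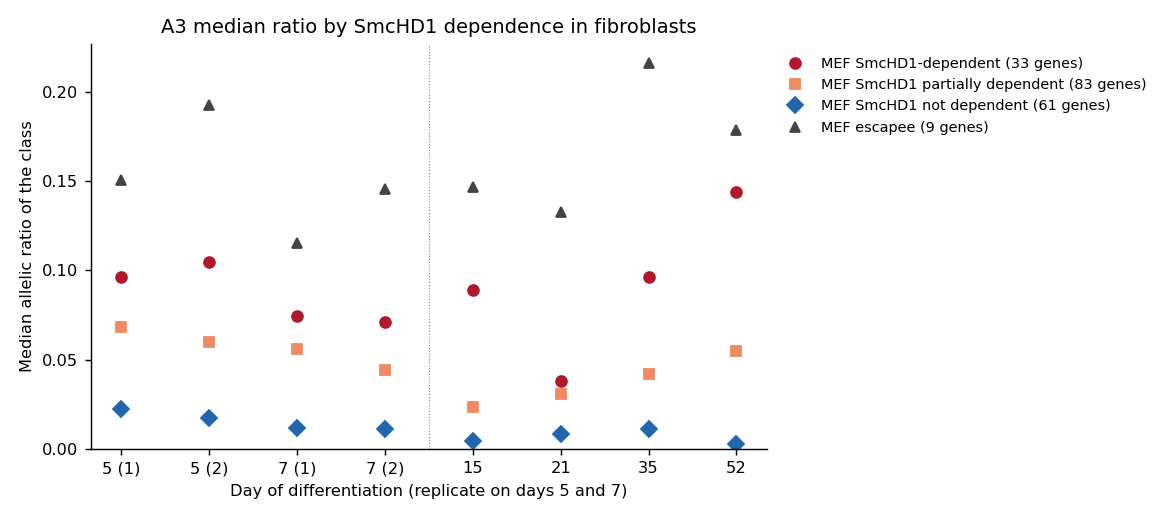
Median allelic ratio (y axis) of the genes of each MEF class in each A3 library (x axis, day with replicate in brackets). The 61 not dependent genes lie at or below 0.0110 in all late libraries, while the 33 dependent genes lie at 0.0377 at day 21 and 0.144 at day 52.

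Whether late A3 ratios moved from days 15 and 21 to days 35 and 52 was tested in a separate contrast. With limma 0 of 212 genes passed (14 at an unadjusted p below 0.05). Without day 52, which sets day 35 alone against days 15 and 21, 43 of 229 genes passed, 42 of them higher. Without day 35, 2 of 212 passed, both higher. In both of these fits the lone library is assumed to vary like the others. Day 35 was the highest of the 8 libraries for 40 of 42 genes below 18 Mb and for 6 of 170 from 18 Mb on. The fit without day 52 therefore includes that block, and it is not a measure of movement along the whole X.

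The change after day 7 was compared between A3 and WT. WT medians of the 212 genes were 0.0494, 0.0458, 0.0165 and 0.0189 at days 5 and 7 and 0.00577, 0.00678, 0.00479 and 0.00289 at the late days. The change in A3 minus that in WT, over the 211 genes with enough fragments in both, was 0.00912 in the library median (two-sided exact permutation of genotype within day, p = 0.448). For single genes 0 of 211 passed with limma on the ratio (19 at an unadjusted p below 0.05). On the log2 scale of Xi over Xa, which weighs changes of low ratios more, 27 passed, all with a less negative change in A3. The 2 scales therefore differ in whether A3 stands apart from WT in its late course, and the count on the ratio was 0 or 1 whichever library was left out.

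The independent KO clones D5 and G6 of the iXist-ChrX_Cast line, in which Xi is the Cast X, were read for the named genes at days 15, 21 and 35. Yipf6 had day 7 means of 0.108 (D5) and 0.127 (G6) and late means of 0.174 and 0.146. Zfx had 0.0513 and 0.0783 at day 7 and 0.130 and 0.130 late. Renbp (0.0704 and 0.0796, then 0.0139 and 0.0308), Mtm1 (0.0404 and 0.0300, then 0.00397 and 0.00522) and Kdm6a (0.306 and 0.250, then 0.158 and 0.115) had lower late means in both clones. Firre was at 0.0162 or below in both clones at either time, and Dynlt3 at 0.0258 or below, so their ratios in A3 were not shared by the other line. These values are means set side by side, and the lines were not tested against each other.

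Xist RNA, the trigger of silencing, was higher in all late libraries. It was 16247, 12292, 18322 and 16194 RPM at days 5 and 7, and 39753, 27708, 36505 and 86546 RPM at days 15, 21, 35 and 52. The difference was 1.47 on the log2 RPM scale (two-sided exact permutation p = 0.0286). Without day 5 replicate 1, day 5 replicate 2 or day 7 replicate 2 the exact permutation p was 0.0571, which is above 0.05. In the fit across all genes the log2 fold change was 1.98 (SE 0.50, edgeR adjusted p = 0.0550). At day 52, Xist took 8.65% of all fragments, which lowers the RPM of every other gene in that library. WT had means of 14173 RPM early and 38113 RPM late.

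Total RNA changed as the cultures matured, and collagens and other genes of the extracellular matrix were among the named genes with the highest log2 fold changes. With edgeR, 798 of 14621 genes passed (5.46%), 621 higher (4.25%) and 177 lower (1.21%) at the late days. At an unadjusted p below 0.05 there were 4641 of the 14621, and unadjusted counts of the lists below are to be read beside this. The count rests on the early replicates: without day 5 replicate 1, day 5 replicate 2 or day 7 replicate 1 no gene passed (3289, 3240 and 3898 at an unadjusted p below 0.05), and without day 7 replicate 2 it was 961. Of the late libraries, leaving out day 15 gave 426, day 21 gave 261, day 35 gave 641 and day 52 gave 1027. Scaling by library totals gave 358 higher and 335 lower (51.7% higher against 77.8%), with a shift of -0.304 in the log2 median of all genes. DESeq2 called 3295 genes, 1915 of them higher.

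The 12 higher genes named by size were Col6a3, Lum, Lrrc17, Dnm3os, C1qtnf7, Col3a1, Postn, Islr, Slc26a7, 2810055G20Rik, Vcam1 and Col6a1. The fibrillar collagen gene Col3a1 had 4.37, 1.97, 7.34 and 35.8 RPM at days 5 and 7 and 4285, 688, 820 and 7733 RPM at days 15, 21, 35 and 52 (log2 fold change 8.47, SE 1.51, edgeR adjusted p = 0.0330). Col6a3, a chain of collagen VI, had 0.936 to 1.77 RPM early and 783, 35.6, 11.4 and 2503 RPM late (log2 fold change 9.79, SE 1.94, edgeR adjusted p = 0.0383). Dnm3os, the noncoding host of miR-199a and miR-214, had 0.0672 to 1.09 RPM early and 376, 21.4, 39.3 and 269 RPM late. Days 15 and 52 were the highest for each of these 3 genes, with days 21 and 35 between them and the early level. Lum and Lrrc17 had at most 0.0352 and 0.128 RPM early, so no fold is given for them. They reached 52.1 RPM at day 15 (Lum) and 85.9 RPM at day 52 (Lrrc17). Slc26a7, an anion exchanger, had 2.48 to 8.20 RPM at days 15 to 35 and 194 RPM at day 52.

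The fibroblast and feeder list, chosen as markers of another cell type, held Col3a1, Lum and Postn of these genes. Of its 11 genes 6 passed, all higher (Col1a1, Col3a1, Col5a1, Dcn, Lum and Postn), with a median log2 fold change of 4.44 beside 0.04 over all genes. Its summed level was 106 to 186 RPM at days 5 and 7 and 5659, 1118, 1774 and 11510 RPM late. WT had 73.2 to 195 RPM early and 2537, 671, 2680 and 9218 RPM late, and the change of Col3a1 in A3 minus that in WT was -0.11 on the log2 scale (edgeR adjusted p = 1). In bulk RNA, more cells of a type and more RNA per cell cannot be told apart, nor fewer cells and less RNA per cell, and how many cells of another type the late cultures held was not tested.

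The neural lists moved less evenly. Of 13 tested neural precursor genes 2 passed, both higher. Vim, an intermediate filament of precursors and of mesenchyme, had 44.9, 74.1, 65.7 and 57.9 RPM early and 229, 193, 268 and 157 RPM late (log2 fold change 2.10, SE 0.19, edgeR adjusted p = 0.0192). Sox9, a transcription factor of glial precursors and of cartilage, had 0.370 to 1.25 RPM early and 3.57 to 10.2 RPM late (3.10, SE 0.50, edgeR adjusted p = 0.0295). Nes, which marks neural precursors, had 48.5 to 164 RPM early and 95.8, 195, 154 and 24.6 RPM late, so its groups overlapped. Pax6 was at 4.40 RPM at day 15 and at 0.250, 0.301 and 1.51 RPM at the other late days. Sox1 and Sox2 are listed at 0 in all 8 libraries, and the rows of Gm5607 and Sox2ot cover them on the same strand, so their fragments could not be counted. The called genes of this list were thus Vim and Sox9, both of which other cells also express. The sum of the list was 680 to 1709 RPM at days 5 and 7 and 1616, 2390, 2368 and 705 RPM late. Since it was already present early, a contrast with days 5 and 7 does not measure the labelled NPC state.

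Astroglial genes rose in part. Of 11 tested, 4 passed, all higher, with a median log2 fold change of 1.39 (6 higher and 2 lower at an unadjusted p below 0.05; 6 higher and 1 lower with DESeq2). Among the lower ones was Aldh1l1, known from mature astrocytes (-1.33, edgeR adjusted p = 0.152). Tnc, an extracellular matrix protein of radial glia and of fibroblasts, had 14.6 to 32.8 RPM early and 2320, 348, 1037 and 1168 RPM late (log2 fold change 6.06, SE 0.67, edgeR adjusted p = 0.0217). Nfix and Nfia, transcription factors of gliogenesis, rose by 5.05 and 2.06 (edgeR adjusted p = 0.0309 and 0.0452), and the hyaluronan receptor Cd44 by 1.31 (edgeR adjusted p = 0.0496). The markers of mature astrocytes Gfap, Aqp4 and S100b were at 0.43 RPM or below in every library but day 52, where they reached 9.99, 11.8 and 4.64 RPM. In the neuronal list 0 of 16 genes passed with edgeR (4 at an unadjusted p below 0.05; 1 with DESeq2). Dcx, which marks young neurons, had 57.3 RPM at day 15 and 0.353 to 3.00 RPM in all other libraries. The sum of the list did not follow Dcx. It was 209 to 451 RPM early and 810, 273, 220 and 1167 RPM late, highest at day 52.

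**Figure D5:**
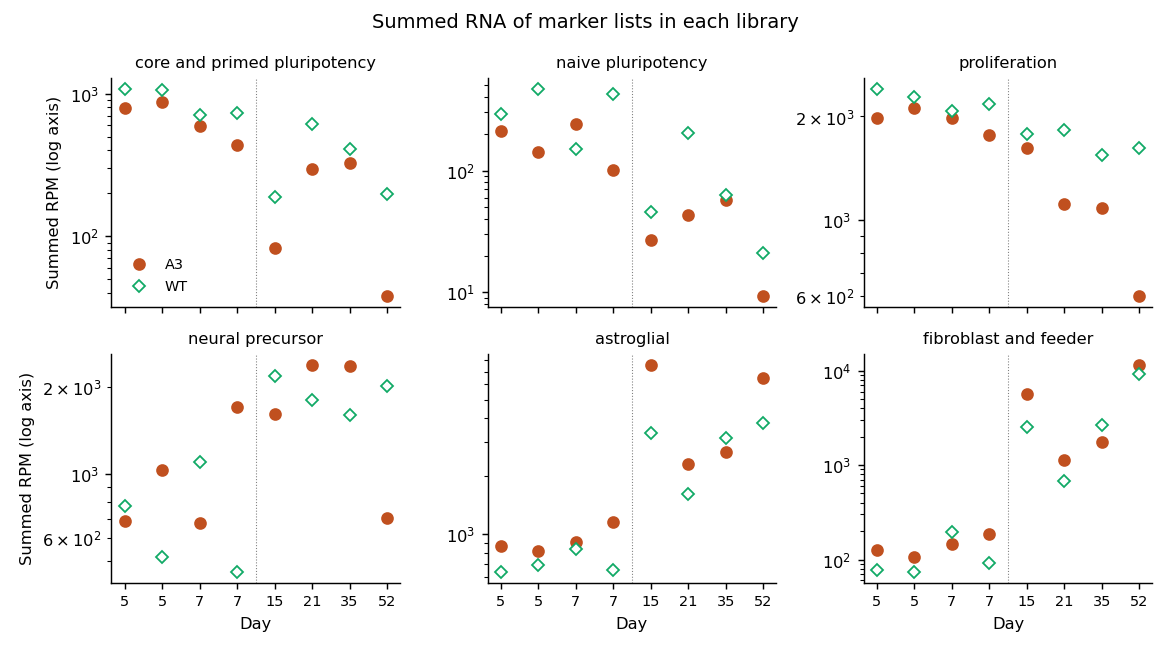
Summed RPM (y axis, log scale) of 6 marker lists in each A3 (filled) and WT (open) library by day (x axis). The fibroblast and feeder list is at 106 to 186 RPM at days 5 and 7 and at 1118 to 11510 RPM late in A3 (671 to 9218 RPM in WT), and both pluripotency lists of A3 are lowest at day 52.

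Pluripotency genes had lower sums in every late library, but none passed the test. Of the 13 naive genes 0 passed with edgeR (8 lower at an unadjusted p below 0.05; 8 lower with DESeq2), with a median log2 fold change of -2.08. Of the 13 core and primed genes 0 passed (7 lower unadjusted; 6 lower with DESeq2), with a median of -2.04. Pou5f1 had 32.4, 51.6, 31.04 and 6.84 RPM at days 5 and 7 and 1.95, 5.13, 8.17 and 0 RPM late. Esrrb had 60.6, 33.5, 62.8 and 34.1 RPM, then 5.59, 14.4, 17.5 and 1.08. Both were higher at days 21 and 35 than at day 15 and lowest at day 52. The sum of the core and primed list was 436 to 870 RPM early and 82.4, 298, 326 and 37.7 RPM late, whereas WT had 187, 610, 406 and 198 RPM at the late days. Day 21 and day 35, with the most remaining pluripotency RNA among the late libraries, also had the lowest sums of the fibroblast list.

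The 12 named genes that fell were C330024D21Rik, Dmc1, Atp1b1, Stk31, Snhg9, Wdr86, Mycn, Gm14393, Pla2g4c, Unc13d, Hsf2bp and Rad51b. The recombinase gene Dmc1 had 26.9, 25.3, 22.6 and 11.8 RPM early and 2.61, 4.88, 6.97 and 1.08 RPM late (log2 fold change -2.22, SE 0.49, edgeR adjusted p = 0.0454). Rad51b, a gene of homologous recombination, had 1176 to 1324 RPM early and 424, 323, 423 and 202 RPM late, with -1.56 (SE 0.20, edgeR adjusted p = 0.0239). Mycn, a proto-oncogene of stem and precursor cells, had 8.70 to 13.7 RPM early and 0.908 to 4.41 RPM late. These 3 genes were lower in all 4 late libraries, and day 52 was the lowest for each. The proliferation list had 0 of 16 genes past the test with edgeR (6 lower and 1 higher at an unadjusted p below 0.05; 1 in each direction with DESeq2) and a median of -0.74, with sums of 1766 to 2111 RPM early and 1622, 1115, 1080 and 599.6 RPM late.

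Regulators of silencing were read as a list of their own. Of 24 X inactivation regulators 2 passed, both lower, beside 5.46% of all genes in either direction and 1.21% lower. A count of 2 genes is too few to set the list apart. At an unadjusted p below 0.05, 8 were lower and 4 higher, and DESeq2 called 5 lower and 1 higher. Ftx, a noncoding RNA next to Xist, fell from 143 to 257 RPM to 72.4 to 94.99 RPM (log2 fold change -0.89, SE 0.17, edgeR adjusted p = 0.0374). Suz12, a core subunit of Polycomb complex PRC2, fell from 222 to 272 RPM to 73.3 to 145 RPM (-0.85, SE 0.17, edgeR adjusted p = 0.0380). Of 8 DNA methylation enzymes 3 passed. The de novo methyltransferase Dnmt3a rose by 0.89 and the demethylase Tet3 by 1.13, and Tet1 fell by 1.47 on the log2 scale (edgeR adjusted p = 0.0484, 0.0403 and 0.0461). Dnmt3b, the other de novo enzyme, had 83.2 to 216 RPM early and 19.2, 59.9, 74.1 and 6.70 RPM late (-1.73, edgeR adjusted p = 0.111).

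Other lists had few calls. Of 28 imprinted genes Plagl1 and Ndn rose (2.43 and 1.88 on the log2 scale) and Mirg fell (-1.10). Among escape genes Car5b rose (1.52) and Ftx fell, among FGF-ERK targets Dusp6 rose (1.33), and in the Wnt list of 12 genes the receptor Lgr5 rose (2.83), with 1.20 to 4.24 RPM early and 10.2 to 21.4 RPM late. The median of the Wnt list was -1.49, with 3 genes lower and 1 higher both at an unadjusted p below 0.05 and with DESeq2. Over all 14621 genes these counts were 4641 unadjusted and 3295 with DESeq2, so they do not set the list apart. Of 24 tested Hox genes 1 passed, Hoxc10 (4.84, edgeR adjusted p = 0.0379), with a list median of 2.58. The summed Hox level was 3.02 to 6.01 RPM in 3 early libraries, 240 RPM in day 7 replicate 2 and 128 to 299 RPM late, so that replicate stood with the late libraries. In the endothelial list Emcn rose (6.13), and in the neural crest list Ets1 rose (1.33). None of 14 Notch, 11 BMP-Id, 6 oligodendroglial, 7 regional brain, 8 mesendoderm or 3 blood genes passed with edgeR, and 1, 2, 1, 2, 0 and 1 of them had an unadjusted p below 0.05 (1, 1, 1, 1, 0 and 1 passed with DESeq2).

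X-linked genes as a class had few calls in total RNA. Of 522 tested, 22 were higher and 7 lower with a median log2 fold change of 0.06, beside 0.04 over all genes. Among late libraries 0 of 15435 genes differed between days 35 and 52 and days 15 and 21 with edgeR (816 at an unadjusted p below 0.05; 33 with DESeq2), but without day 35, which sets day 52 alone against days 15 and 21, 744 passed. In that fit the spread comes from the other groups and the lone library is assumed to vary like them, so the count has no replicate of day 52 behind it. Without day 15, day 21 or day 52 the counts were 0, 3 and 0. The change of total RNA in A3 did not differ from that in WT for any of 15341 genes with edgeR (143 at an unadjusted p below 0.05) or with DESeq2 (198 unadjusted). With 1 library at each late day, a difference of the size of the spread between days could not be detected.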

How the data were processed

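ChrRNA-seq counts of 8 A3 libraries (4 of days 5 and 7, 4 late) were analysed, with 8 WT libraries of the same days and clones D5 and G6 beside them. The authors deposited whole-number fragment counts per gene, in total and for each allele: rRNA reads had been removed with Bowtie2 2.3.2, the rest aligned with STAR 2.4.2a to mm10 with SNPs masked, fragments split by allele with SNPsplit, and strand-specific counts made with featureCounts over whole transcripts, introns included. Unassignable fragments carry no allele, so short or SNP-poor genes rest on few fragments. The deposited ratio table served only for its list of 246 genes and their positions. Its 26 columns of per-sample ratios, whose names are those of libraries of the other line, were not used. No 2 of the libraries were identical. For D5 and G6 the day 7 replicates were averaged.

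Ratios were computed as Xi/(Xi + Xa) for genes with at least 10 allelic fragments in each library and tested with limma 3.58.1 (empirical Bayes with a trend). Total counts of 22556 genes were tested with edgeR 4.0.16 (quasi-likelihood, TMM, filterByExpr), both with Benjamini-Hochberg adjustment and a threshold of 0.05, or with exact permutation tests of libraries. DESeq2 1.42.0 was an alternative, run in R 4.3.3. Other alternatives were the allelic minimum, log2 ratios, scaling, filters, day as a factor, the replicate number as a block, day 7 alone and leaving out each library. The fits of parts of the late days, without genes below 18 Mb and without 5 chromosomes were chosen after seeing the data. Figures were drawn in Python 3.11.15. The tests were tried on simulated data.

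Genes were named by size: ratio genes that passed or did not overlap, genes with all late ratios above day 7, the 5 highest ratios at day 52, and the 12 highest and 12 lowest log2 fold changes of passing, non-overlapping genes with a mean of at least 5 RPM. List members may be named too. Some genes that meet these rules are not reported here. Members and lists were chosen with earlier results of these data known. The labels do not say whether replicates were separate cultures, so p-values measure only the spread between these libraries. Intervals cover counting error only. Depth was 26559430 to 31152645 fragments per A3 library.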

Additional observations from a re-analysis of the deposited data

Results flagged for a closer look

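In groups of 4 libraries, a value was picked out where the gap between the highest or lowest library and its neighbour was too large a part of the group's range by Dixon's 95% criterion. Of 102 groups examined, 12 met it, where chance gives about 5%.

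On the X, the pooled ratio of genes below 10 Mb was 0.287 at day 35 against 0.0371 to 0.0695 at the other late days, and that of genes from 10 to 18 Mb was 0.191 against 0.0228 to 0.0356. Renbp had a ratio of 0 at day 35 against 0.00556 to 0.00667, which is a difference of 1 fragment. Brcc3 had 0.00218 at day 52 against 0.00854 to 0.00891.

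In total RNA, Smchd1 was at 217 RPM at day 52 against 378 to 411 RPM, and Slc26a7 at 194 RPM at day 52 against 2.48 to 8.20 RPM. Among the early libraries, Col3a1 was at 35.8 RPM (others 1.97 to 7.34) and C1qtnf7 at 0.481 RPM (others 0.150 to 0.176) in day 7 replicate 2. Postn was at 4.79 RPM in day 7 replicate 1 (others 0.211 to 0.336), where Lum was at 0 (others 0.0321 to 0.0352, about 1 fragment each). Col6a1 was at 1.65 RPM in day 5 replicate 1 (others 2.04 to 2.09) and Stk31 at 6.26 RPM in day 5 replicate 2 (others 9.96 to 10.4).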

How the results depend on the processing

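Of the late against early ratios, 2 genes passed, and 0 did with a minimum of 1 allelic fragment, 6 on log2 ratios, 11 with edgeR and 0 to 11 with a library left out. The late against day 7 count of 0 became 1 on log2 ratios and 0 to 2 with a library left out. The count between late days was 0 to 43 and that of A3 against WT 0 to 1 with a library left out, and 27 on log2 ratios. The library median difference of -0.0190 was -0.0222 to -0.0132 with a library left out, but 0.00291 as a mean over genes and 0.0224 as the share above 0.1, both opposite in sign. That of A3 against WT (0.00912) was 0.00355 to 0.0147, and that of Xist (1.47) was 1.13 to 1.68 with exact permutation p = 0.0286 to 0.0571. The cause of these changes was not tested.

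Of total RNA, 798 genes passed. The count was 464 without a filter, 3295 with DESeq2, 4088 with day as a factor, 0 with day 7 alone as the early group (1586 unadjusted), 275 with days 15 and 21 alone, 69 with days 35 and 52 alone, 520 without chromosomes 1, 5, 8, 12 and 16, which removes genes, and 0 to 1027 with a library left out. Between late days it was 33 with DESeq2 and 0 to 744 with a library left out, and 0 in each such fit for A3 against WT. Of 46 genes named in total RNA, 46 missed the threshold with day 7 alone, 42 with days 35 and 52 alone and 0 with DESeq2. Over 61 named results and 1041 alternatives, 641 kept direction and side of the threshold, 396 lost it, 4 gained it and 0 changed sign.

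With the replicate number as a block, 0 ratio genes and 420 total RNA genes passed (344 shared), the median difference was -0.0201 and that of Xist 1.32 (exact permutation p = 0.0333 for both). Same-numbered libraries of days 5 and 7 correlated at 0.265 (ratios) and 0.382 (log2 CPM) over 2 pairs, too few to take the number as a pairing. Ratios of genes with few fragments, such as Timp1, are limited by depth.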
